A study of Sus scrofa with 63 samples.

Results

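Chemokines are small secreted proteins that steer leukocytes through tissues, and each is read by 1 or more receptors on the cells it attracts. In the gut, CCL25 and CCL28 are made by epithelial cells and draw lymphocytes that carry CCR9 or CCR10, CCL19 and CCL21 guide CCR7-bearing cells into lymphoid tissue, CCL20 attracts CCR6-bearing cells to the epithelium over lymphoid follicles, and CXCL12 is a stromal factor that retains CXCR4-bearing cells. CCL2, CCL5, CXCL2 and CXCL16 are attractants of monocytes, of effector lymphocytes, of neutrophils and of CXCR6-bearing lymphocytes.

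These 10 genes were described in the jejunum of male pig fetuses from 4 genotypes at 2 ages. They are 10 of the 45222 gene names on the array. Every probe whose gene name matched a member in any letter case was taken, which gave 24 of 60305 probes. The purebreds were Large White (LW) and Meishan (MS). The reciprocal crosses were LWMS, from an LW sire and an MS sow, and MSLW, from an MS sire and an LW sow. At day 90 of gestation there were 9 LW, 8 MSLW, 9 LWMS and 6 MS fetuses, and at day 110 there were 9, 6, 9 and 7. RNA of each of the 63 fetuses was labelled in 1 colour and hybridised to its own array. The middle of the jejunum was sampled at caesarean section from fetuses close to the mean weight of their litter. Which sow carried a fetus did not enter the fit, so litter mates were counted as independent and p-values can be too small where litters differ.

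Levels are log2 signals minus the array's own 75th percentile of log2 signal, so a level of 0 sits at that percentile. They are compared between groups for 1 probe, never between probes. A probe entered the tests when, in some group, 75% or more of the arrays read it well above background. This held for 40515 probes and for 23 of the 24 chemokine probes. The other was the dimmer CCL19 probe, O555. The brightest probe of each gene stands for it. A difference by age, or between MS and LW, was called at a limma adjusted p of 0.01 or less with a log2 difference of 0.5 or more.

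Between 51.2% and 87.6% of probes per array were well above background, with medians of 67.6% at day 90 and 66.3% at day 110, and no spot was saturated. The number of arrays limits the precision. Leaving out LW fetuses 484 at day 90 and 469 at day 110 moved no count of called chemokine probes by over 1.5 times.

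The array of MS fetus 632 at day 110 went against its tissue label and stood apart in the chemokines too. Of all 63 arrays it correlated least with the median of its own group (Pearson r = 0.911 over the tested probes). Its CCL25 level was -0.18, while the other 62 fetuses lay between 4.53 and 6.83. Among 6 enterocyte markers tested, LCT (lactase, -1.31), FABP2 (a fatty acid carrier, 0.20), APOA4 (an apolipoprotein, 0.77), ALPI (intestinal alkaline phosphatase, -4.99) and ANPEP (aminopeptidase N, 2.76) were below all other fetuses.

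The general epithelial marker EPCAM was within their range (5.71). HOXA13, HOXB13 and HOXD13, known for their use in the hindgut, and CA1, a carbonic anhydrase known from the large bowel, were above all other fetuses. HOXA13 lay at 1.23 in fetus 632 against a highest level of -2.69 elsewhere, and CA1 at 3.98 against -1.39. These 4 genes were chosen after their values were seen. CCL5 on this array also lay below all other fetuses by probes A_72_P623643 (0.35) and A_72_P115401 (-2.37). CXCL12 probe O8813 lay above all others (2.88). Main results for CCL25, CXCL12, CCL28, CXCL2 and CCL2 are therefore given with and without this array. Many other results, among them those of the lists of other genes, are given with it alone. In the other 62 fetuses LCT lay at 1.06 or higher.

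**Figure D1:**
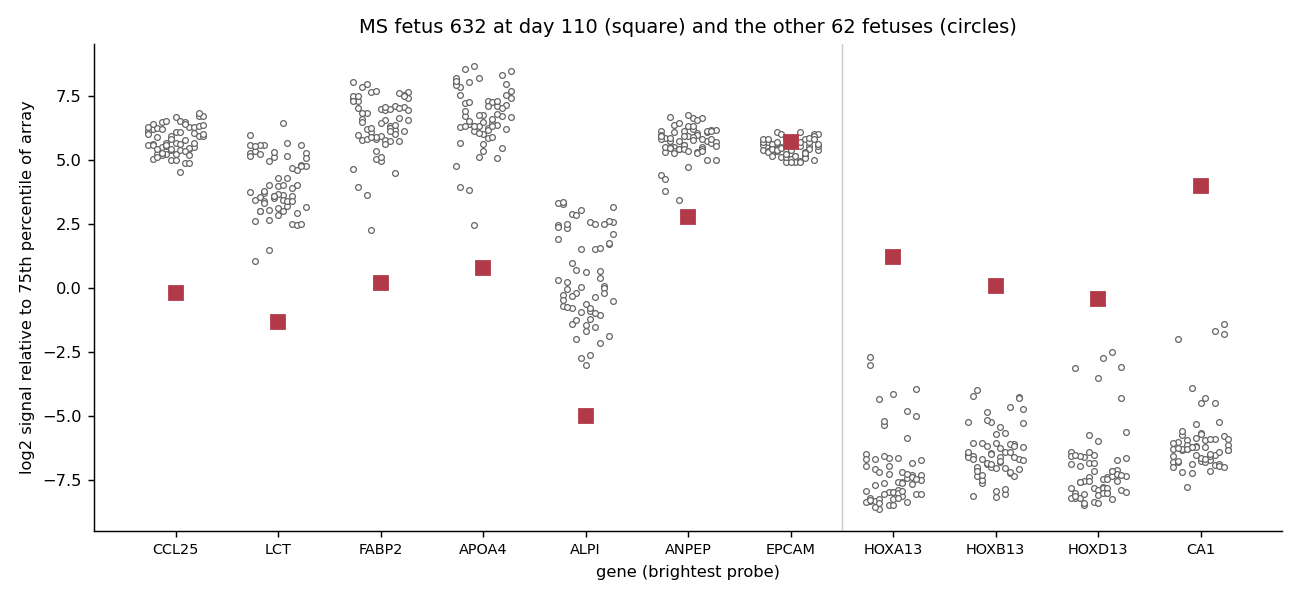
Level as log2 signal minus the array's 75th percentile (y axis) of 11 genes (x axis) in MS fetus 632 at day 110 (red square) and in the other 62 fetuses (circles). The square lies below every circle for CCL25 and 5 enterocyte genes, within the circles for EPCAM and above every circle for the 4 genes to the right of the line.

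The sequences of the probes on which the age and breed differences rest are shown because several are not independent of each other. Each line is a 60-base probe from its 5′ to its 3′ end, and capitals mark the longest stretch, of 20 or more bases, shared with another probe of the same gene.
CXCL12, CUST_450_PI427286967: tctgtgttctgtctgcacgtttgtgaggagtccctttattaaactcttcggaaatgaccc
CXCL12, O8813: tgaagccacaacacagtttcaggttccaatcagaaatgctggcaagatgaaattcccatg
CXCL12, A_72_P713558: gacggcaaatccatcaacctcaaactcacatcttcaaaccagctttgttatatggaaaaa
CXCL12, A_72_P232477: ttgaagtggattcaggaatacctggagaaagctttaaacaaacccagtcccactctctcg
CCL28, A_72_P077321: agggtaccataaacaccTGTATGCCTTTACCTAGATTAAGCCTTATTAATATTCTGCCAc
CCL28, O820: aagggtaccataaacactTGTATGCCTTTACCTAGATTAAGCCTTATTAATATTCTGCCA
CXCL2, A_72_P146411: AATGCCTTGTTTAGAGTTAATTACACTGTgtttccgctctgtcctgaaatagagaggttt
CXCL2, A_72_P732383: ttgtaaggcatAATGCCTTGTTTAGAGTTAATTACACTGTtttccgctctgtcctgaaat
CXCL2, O8155: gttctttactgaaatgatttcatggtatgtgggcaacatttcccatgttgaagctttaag
CCL25, O475: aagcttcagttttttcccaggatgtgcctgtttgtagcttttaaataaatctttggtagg
CCL25, A_72_P088121: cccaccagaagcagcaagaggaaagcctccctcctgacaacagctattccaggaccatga
CCL2, A_72_P035346: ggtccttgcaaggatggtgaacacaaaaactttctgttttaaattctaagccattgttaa
CCL2, A_72_P412643: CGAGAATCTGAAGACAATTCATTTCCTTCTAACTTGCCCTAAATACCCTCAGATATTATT
CCL2, A_72_P675364: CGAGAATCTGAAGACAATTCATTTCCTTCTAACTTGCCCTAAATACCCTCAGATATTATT

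CCL2 probes A_72_P412643 and A_72_P675364 are the same sequence, so they are repeat readings of 1 target. Over 63 arrays their levels differed by 0.02 ± 0.09 (SD). The CCL28 probes overlap by 59 bases and match at 58 of them, with C17T as the difference (the base of A_72_P077321, its position from that probe's 5′ end, the base of O820). The first 2 CXCL2 probes share a stretch of 29 bases. Past 1 extra g in A_72_P146411, the match goes on to the 3′ end of A_72_P732383, so these probes are not independent. The CXCL12 and CCL25 probes share no stretch of over 6 bases with each other.

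The array also carries probes without a gene symbol whose 60 bases equal those of a chemokine probe. The pair for CXCL12 A_72_P232477 differed by 0.00 ± 0.07 (SD, n = 63) and that for CCL25 A_72_P088121 by 0.02 ± 0.03. For the dim CCL28 A_72_P077321 the pair differed by -0.21 ± 1.02, and for CXCL2 A_72_P146411 by -0.18 ± 0.54. Of the 8 such pairs, these dim CCL28 and CXCL2 readings scattered most.

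More chemokine probes were called by age over the 4 genotypes than between MS and LW. The age comparison rests on more fetuses, so these counts are not like for like. Of all probes, too, 13.7% were called by age, against 3.59% between MS and LW at day 90 and 5.01% at day 110. Averaged over the 4 genotypes, 10 of 23 probes were called between day 90 and day 110 (5 higher, 5 lower), against 13.7% of all probes tested (6.12% higher, 7.62% lower). The median log2 difference was 0.10 over the 23 probes and -0.02 over all probes, and the median size was 0.48 against 0.20. CCL28 and CXCL2 were higher at day 110 by every probe, CXCL12 was lower by all 4, and CCL19 was lower by its tested probe. Both CCL28 probes and CXCL2 probes O8155 and A_72_P732383 entered the tests only through groups of day 110. Their calls as higher at that age are therefore not independent of the filter. Without fetus 632, both CCL25 probes were called higher as well, which made 12 of 23 probes against 14.5% of all. In bulk tissue, more cells of a kind and more RNA per cell cannot be told apart.

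**Figure D2:**
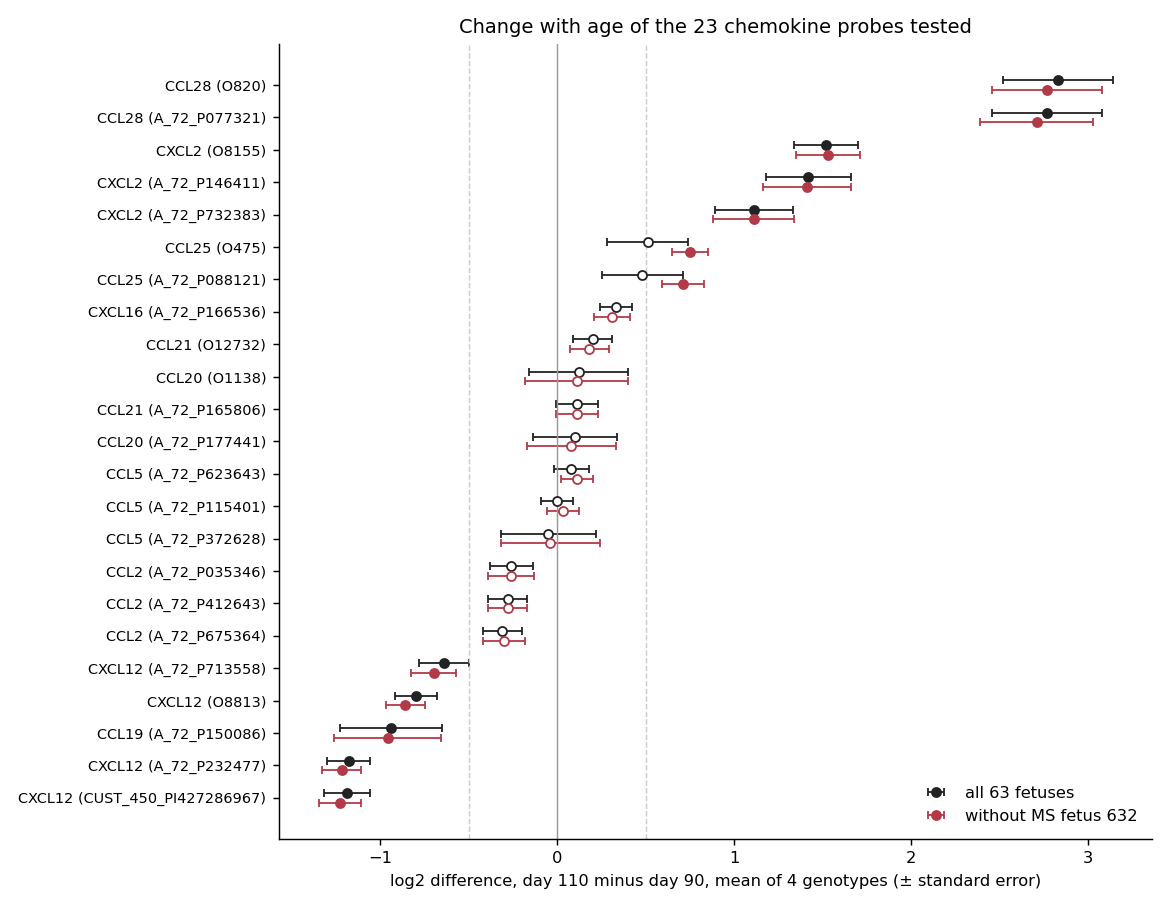
Log2 difference between day 110 and day 90, averaged over the 4 genotypes, with its standard error (x axis) for the 23 chemokine probes (y axis), over all 63 fetuses (black) and without MS fetus 632 (red). Filled points were called and dashed lines mark ±0.5. CCL28 and CXCL2 lie on the right, CXCL12 and CCL19 on the left, and the CCL25 points are filled only in red.

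CXCL12, the stromal ligand of CXCR4, was lower at day 110 in each genotype. Its standing probe was called in LW, LWMS and MSLW, and in MS once fetus 632 was left out. Its level at day 90 ran from 4.09 to 5.25 (median 4.56) in LW, from 2.53 to 4.72 (4.18) in MSLW, from 3.74 to 5.12 (4.11) in LWMS and from 3.12 to 4.47 (4.24) in MS. At day 110 it ran from 2.63 to 4.13 (3.30) in LW, from 2.40 to 3.48 (3.10) in MSLW, from 2.16 to 3.38 (2.71) in LWMS and from 2.17 to 3.93 (2.77) in MS. The ages overlapped in LW by 1 day-110 fetus above the lowest day-90 fetus, and did not overlap in LWMS. The highest MS value at day 110 was fetus 632.

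The mean log2 difference of CXCL12 over genotypes was -1.19 (standard error 0.13, limma adjusted p = 1.90e-11), a 2.28-fold lower signal. The other probes fell by 0.80, 0.64 and 1.18 on the log2 scale, all called. By genotype, the standing probe fell by 1.18 in LW, 1.58 in LWMS and 1.01 in MSLW, all called, and its difference of -1.0 in MS had an adjusted p of 0.0157. The MSLW call was lost with slide as a block (-0.99, adjusted p = 0.0115), median centring (adjusted p = 0.0177) or no filter (adjusted p = 0.0129). Without fetus 632 the MS difference was -1.16 and was called (limma adjusted p = 0.004). With that fetus kept, the unnamed probe with the sequence of A_72_P232477 was called in MS (-0.96, limma adjusted p = 0.00912). On each of the 8 slides the mean of day 110 was below that of day 90, by -0.70 to -1.73.

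Of the cell type markers set beside CXCL12, 2 fibroblast genes were also lower at day 110. Of 5 fibroblast genes, COL1A1 (-0.81) and COL1A2 (-0.74), both collagen chains, were lower at day 110 and none was higher. The summed fibroblast signal had group medians of 102 to 140 at day 90 and 64.2 to 85.4 at day 110, in multiples of the 75th percentile, with single fetuses from 76.1 to 167 and from 43.5 to 179. The highest sum, 179, was that of fetus 632, which the differences above include. None of the 5 smooth muscle or 5 endothelial genes was called by age. Their part in the CXCL12 difference was not tested. CXCR4, the receptor, differed by -0.16 (adjusted p = 0.165), and CXCR7, which also binds CXCL12, by 0.45 (adjusted p = 0.0127), neither called.

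CCL28, an epithelial chemokine of mucosal surfaces, rose from at or near background. None of the 9 LW and none of the 8 MSLW fetuses had a CCL28 signal well above background at day 90, against 4 of 9 LWMS and 1 of 6 MS fetuses. At day 110 it was well above background in 7 of 9 LW, 4 of 6 MSLW, 7 of 9 LWMS and 6 of 7 MS fetuses. Levels at day 90 ran from -8.50 to -5.43 (median -6.83) in LW, from -8.09 to -4.65 (-7.64) in MSLW, from -7.21 to -2.71 (-5.71) in LWMS and from -8.58 to -5.09 (-6.31) in MS. At day 110 the medians were -2.78, -4.40, -4.72 and -4.05. The ages overlapped in LW and LWMS and, by 1 fetus of each age, in MSLW, and did not overlap in MS.

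A level below background is only a bound, so the rise is given against raised day-90 levels, as 4.09-fold in LW and 1.47-fold in MSLW. These folds set the mean of all day-110 arrays against, for each day-90 array, the higher of its dimmest signal well above background and the probe's own. Only 7 of 9 LW and 4 of 6 MSLW arrays of day 110 were well above background, so the folds are not strict minimums. The fitted difference over genotypes was 2.77 (standard error 0.31, limma adjusted p = 1.34e-10) and rests in part on values below background. It was 2.83 by the overlapping probe and 2.26 by the unnamed probe of the same sequence. Both named CCL28 probes passed the filter only through groups of day 110, so the filter itself favoured a rise. With no filter the standing probe again gave 2.77 (limma adjusted p = 2.90e-10). All 8 slides had a positive mean difference, from 1.5 to 4.66. By genotype the standing probe was called in LW, MS and MSLW, and in LWMS it was 1.56 (adjusted p = 0.0475). The unnamed probe of the same sequence was called in LW alone (2.69). Its limma adjusted p-values were 0.0497 in MS, 0.0501 in MSLW and 0.0214 in LWMS. The size by the standing probe changed with the processing. Over genotypes it was 1.26 in the authors' matrix and 0.92 with normexp background correction, both still called. The MSLW call (2.62) was lost in the authors' matrix (0.97, adjusted p = 0.0467) and with normexp (0.62, adjusted p = 0.22), and the MS call with normexp (1.06, adjusted p = 0.0353). Leaving out fetus 632, where CCL28 lay at -2.01, gave 2.71 over genotypes.

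CXCL2, a neutrophil attractant, was also dim and higher at day 110. Its standing probe was well above background in 5 of 9, 4 of 8, 4 of 9 and 5 of 6 fetuses of LW, MSLW, LWMS and MS at day 90, and in 6 of 9, 6 of 6, 8 of 9 and 7 of 7 at day 110. Levels at day 90 had medians of -4.73 in LW, -5.06 in MSLW, -5.15 in LWMS and -4.77 in MS. In LW at day 110 they spread from -5.22 to -0.31 (median -2.57), the widest range of any group for this probe. The 3 LW fetuses without a signal well above background lay inside the range of day 90. At day 110 the medians of MSLW, LWMS and MS were -3.76, -3.84 and -3.46.

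Over genotypes CXCL2 differed by 1.42 (standard error 0.24, limma adjusted p = 2.88e-06), a 2.68-fold higher signal, and the other probes by 1.52 and 1.11. Those other probes passed the filter only through groups of day 110, the standing probe also through MS at day 90. Without fetus 632 the standing probe gave 1.41, and over all fetuses it gave 0.87 in the authors' matrix and 0.66 with normexp, each called. All 8 slides had a positive difference, from 0.72 to 2.48. In single genotypes the standing probe was called in LW (1.79, limma adjusted p = 0.00446). That call was lost with quantile normalization, median centring or purebreds alone, at adjusted p-values of 0.0102 to 0.0384. Probe O8155 was called in LW (2.81) and LWMS (1.22). The unnamed probe with the standing probe's sequence was called in LW (1.87), MS (1.72) and LWMS (1.38). In MSLW that probe gave 1.21 (limma adjusted p = 0.0399), which was not called.

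CXCR2, the main CXCL2 receptor of neutrophils, was 1.02 higher at day 110 over genotypes (adjusted p = 9.41e-11). None of 3 neutrophil marker genes was called by age, with differences of -0.81 to -0.71 over genotypes. Their median difference was 0.61 in LW, -2.08 in MS, -1.23 in LWMS and -0.55 in MSLW, with none called in any genotype. Their part in the CXCL2 difference was not tested.

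CCL25, which guides CCR9-bearing lymphocytes to the small intestine, had narrow ranges in every group but 1. At day 90 it ran from 4.87 to 6.05 (median 5.24) in LW, from 4.53 to 5.65 (5.44) in MSLW, from 5.02 to 6.68 (5.52) in LWMS and from 4.99 to 6.11 (5.38) in MS. At day 110 it ran from 5.54 to 6.74 (6.03) in LW, from 5.49 to 6.73 (6.06) in MSLW and from 5.91 to 6.83 (6.30) in LWMS. In MS it ran from 6.15 to 6.52 in 6 fetuses, with fetus 632 at -0.18. Those 6 MS fetuses lay above all MS fetuses of day 90, while the ages overlapped in LW, MSLW and LWMS.

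With all 63 fetuses the age difference of CCL25 was 0.51 (standard error 0.23, limma adjusted p = 0.0628) and was not called. Without fetus 632 it was 0.75 (standard error 0.10, adjusted p = 1.27e-08), a 1.68-fold higher signal, and the second probe gave 0.71. Without fetus 632 the standing probe was called in each genotype, by 0.68 in LW, 0.85 in MS, 0.68 in LWMS and 0.78 in MSLW, while the second probe, with differences of 0.40 to 0.89, was called in none. In MS the difference with fetus 632 was -0.08, so 1 array turned its sign. Within slides the difference was positive on all 8, from 0.50 to 1.11. Fetus 632 does not enter that range, since its slide held no MS fetus of day 90. CCR9, the receptor, differed by 0.42 (adjusted p = 0.019), which was not called.

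**Figure D3:**
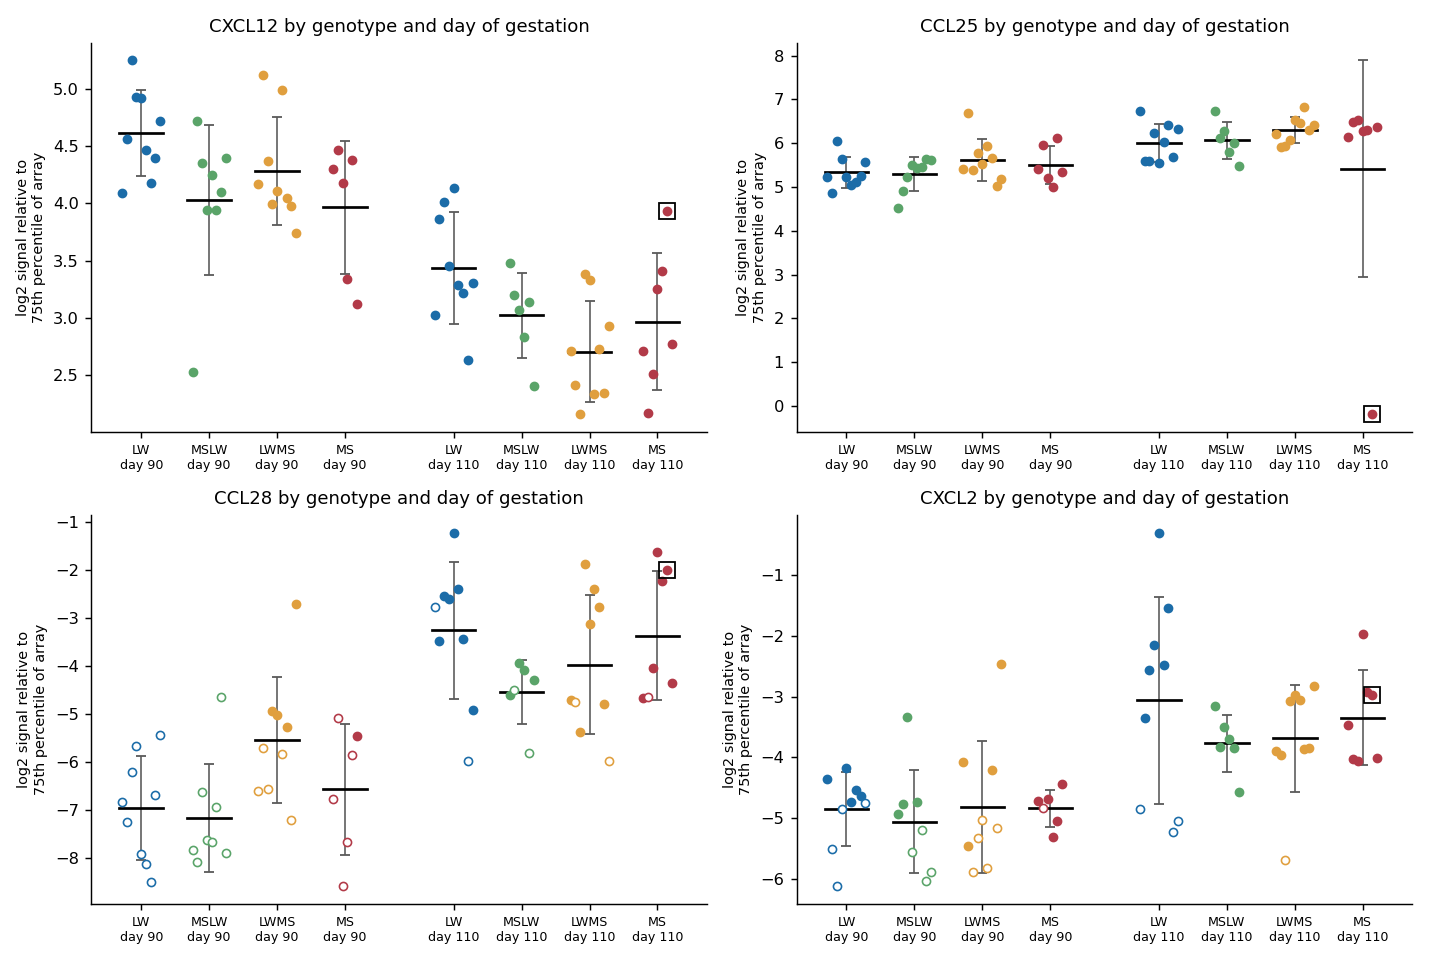
Level as log2 signal minus the array's 75th percentile (y axis) of CXCL12, CCL25, CCL28 and CXCL2 by genotype and day (x axis). Points are fetuses, filled where the signal was well above background, black lines are group means, bars are SD, and the square marks MS fetus 632. CXCL12 is lower and CCL28 and CXCL2 are higher at day 110, and the MS mean of CCL25 at day 110 is pulled down by 1 fetus.

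Some epithelial marker genes moved with CCL28, CXCL2 and CCL25. Of 6 enterocyte genes LCT (1.37) and ALPI (2.47) were higher and ANPEP (-0.59) lower at day 110, and of 3 goblet and Paneth cell genes CLCA1 (1.52) and LYZ (3.45), a secreted lysozyme, were higher. The summed enterocyte signal had group medians of 241 to 350 at day 90 and 282 to 548 at day 110, with single fetuses from 161 to 426 and from 62.4 to 765. The goblet and Paneth cell sum ran from 6.32 to 26.3 at day 90 and from 14.3 to 225 at day 110. The lowest day-110 sums, 62.4 and 14.3, were those of fetus 632. The marker differences above also include that fetus, whose ANPEP level of 2.76 was below all others, and are not given without it. The part of these genes in the chemokine differences was not tested.

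CCL19, a lymphoid-tissue chemokine read by CCR7, was lower at day 110 on average but with wide ranges. At day 90 it ran from -1.54 to 2.96 (median -0.19) in LW, from -2.42 to 0.17 (-0.93) in MSLW, from -1.53 to 1.5 (0.06) in LWMS and from -0.71 to 1.47 (0.09) in MS. At day 110 the medians were -1.80, -0.93, -1.83 and -1.34, and every genotype's ages overlapped. The difference over genotypes was -0.94 (standard error 0.29, limma adjusted p = 0.00835), just past the threshold. The unnamed probe of the same sequence gave -0.86 (adjusted p = 0.0108), which was not called. The call was lost under 7 of the alternatives tried, with adjusted p-values of 0.0104 to 0.0666. Within slides 7 of 8 differences were negative, from -2.33 to 0.29. In MSLW the difference was 0.22, against -1.27 to -1.36 in the other genotypes.

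None of 4 B cell genes was called by age, with a median difference of -0.69 over genotypes. Their summed signal had day-90 medians of 0.317 in LW, 0.606 in MSLW, 0.52 in LWMS and 0.891 in MS. At day 110 these were 0.251, 0.506, 0.152 and 0.209. Single fetuses ranged from 0.0926 to 1.38 at day 90 and from 0.105 to 1.41 at day 110. The part of these genes in the CCL19 difference was not tested. CCR7 differed by -0.13 (adjusted p = 0.775).

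In single genotypes fewer chemokine probes passed. The age difference was called for 6 of 23 probes in LW (4.77% of all probes), 2 in MS (3.17%), 4 in LWMS (9.88%) and 5 in MSLW (5.41%). Without fetus 632 these were 7 in LW (5.56% of all probes), 5 in MS (3.53%), 5 in LWMS (11%) and 6 in MSLW (6.69%).

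CCL21, CCL5, CCL20 and CXCL16 were not called by age. The difference over genotypes was 0.20 for CCL21 (95% interval -0.03 to 0.43), 0.08 for CCL5 (-0.12 to 0.27) and 0.12 for CCL20 (-0.45 to 0.69). CCL21 and CCL19 are neighbouring genes in RefSeq's pig gene table (assembly Sscrofa11.1). CXCL16 was 0.33 higher (0.14 to 0.52) with an adjusted p of 0.00449, below the size asked for, and was higher on all 8 slides by 0.01 to 0.66. One CXCL16 spot, of an MS fetus at day 90, was an outlier and was left out.

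Levels of these genes overlapped across all 8 groups. CCL21 group means lay between 2.19 in MSLW at day 90 and 2.83 in LW at day 110, and CCL5 means between 1.1 in LWMS at day 90 and 1.58 in MS at day 90. CCL20 means lay between -1.82 and -1.17, with SDs of 0.81 to 1.56 that exceed this span. The second CCL20 probe and the second CCL21 probe were not called in any comparison either, nor were the 2 dimmer CCL5 probes.

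**Figure D4:**
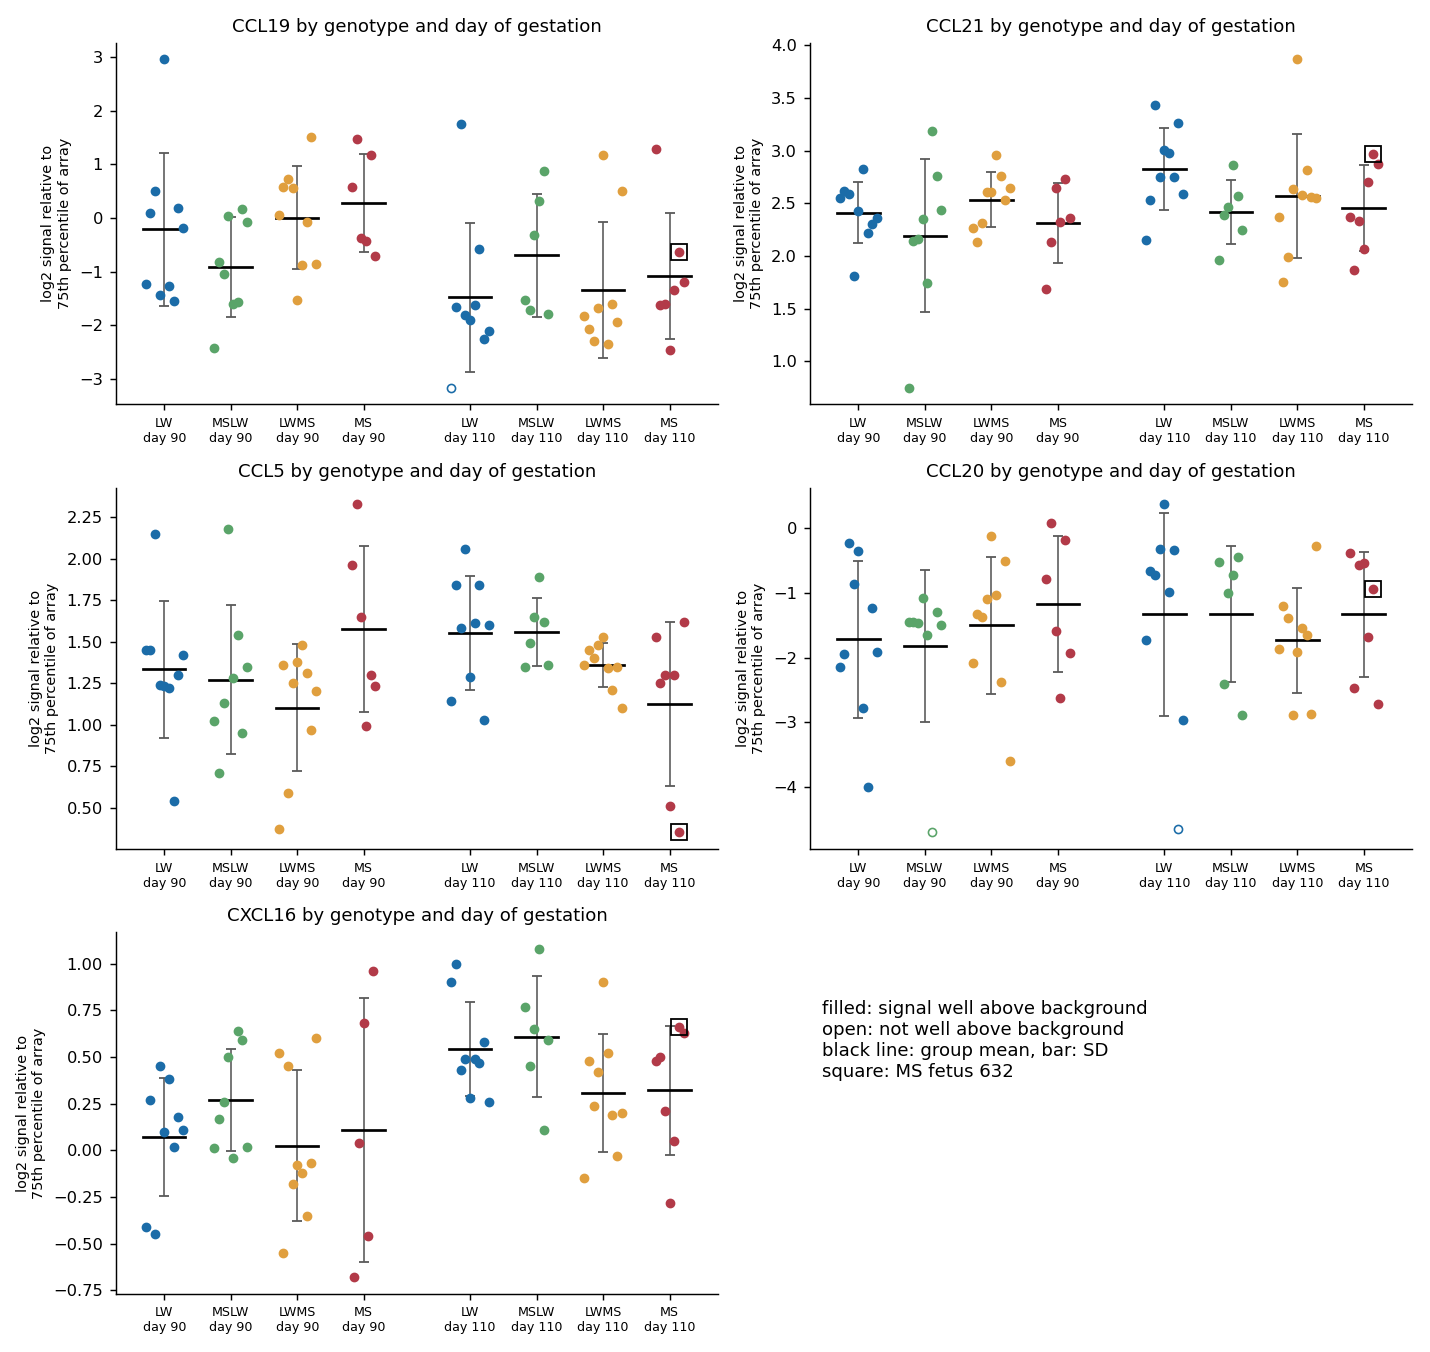
Level as log2 signal minus the array's 75th percentile (y axis) of CCL19, CCL21, CCL5, CCL20 and CXCL16 by genotype and day (x axis). Points are fetuses, filled where the signal was well above background, with group means (lines) and SD (bars). Groups overlap in each panel.

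Between the breeds, the chemokine that differed by every probe was CCL2, which draws monocytes into tissue. At day 110 the MS fetuses were lower than the LW fetuses by all 3 CCL2 probes, which were the only chemokine probes called (3 of 23, against 5.01% of all probes). CCL2 ran from 1.60 to 2.94 (median 2.08) in LW, from 0.65 to 1.54 (0.97) in MSLW, from 0.00 to 1.70 (1.09) in LWMS and from -0.06 to 1.53 (0.98) in MS. Every LW fetus was above every MS fetus and every fetus of the MSLW cross, while the LWMS cross overlapped with LW. At day 90 it ran from 1.27 to 2.24 (1.55) in LW, from -0.51 to 1.74 (1.45) in MSLW, from 1.20 to 2.28 (1.31) in LWMS and from 0.98 to 2.38 (1.59) in MS. All genotypes overlapped at that age.

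For the standing probe, MS minus LW at day 110 came to -1.21, with a standard error of 0.24 and a limma adjusted p of 0.000334, so the MS signal was 2.31-fold lower. By the 2 probes of identical sequence it was -1.61 and -1.62, and LW at day 110 (1.18 to 2.24 by A_72_P412643) lay above every MSLW (at most 0.84), LWMS (1.04) and MS fetus (0.72). A probe without a gene symbol that has the sequence of A_72_P035346 gave -1.52, and the pair differed by 0.15 ± 0.41 (SD, n = 63). Without fetus 632 the standing probe's difference was -1.21 (adjusted p = 0.000662). On the 5 slides that held both groups it was negative each time, from -0.06 to -1.97. At day 90, where the ranges overlapped, the fit gave 0.09 (adjusted p = 0.914).

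**Figure D5:**
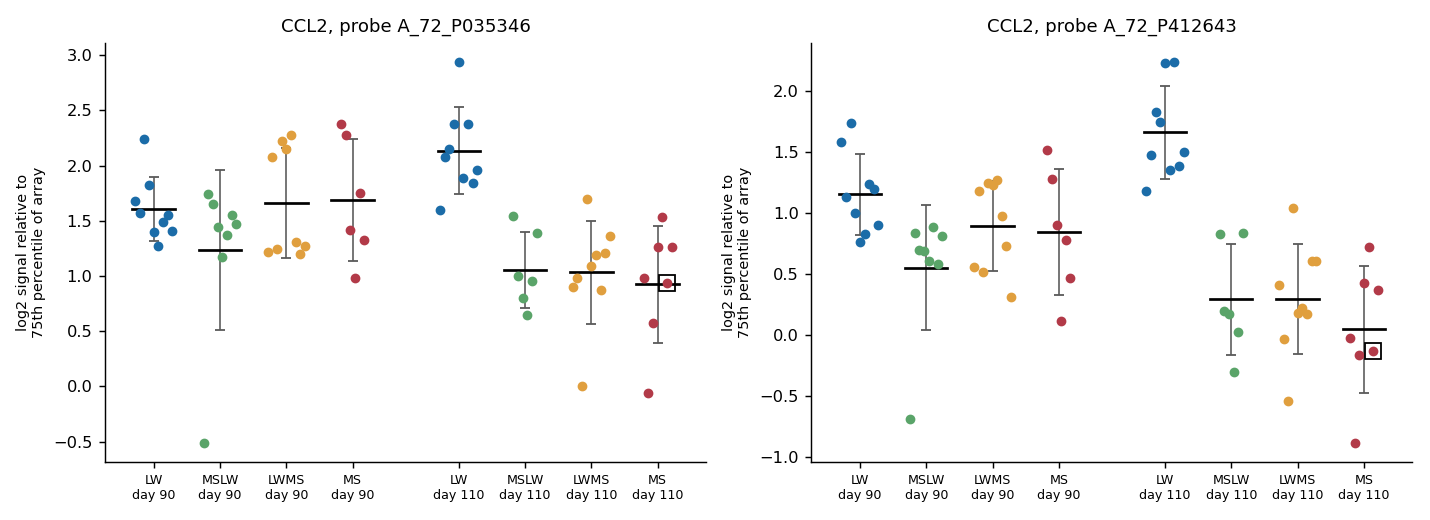
Level as log2 signal minus the array's 75th percentile (y axis) of 2 CCL2 probes by genotype and day (x axis). Points are fetuses, with group means (lines) and SD (bars), and the square marks MS fetus 632. LW at day 110 is the highest group in both panels.

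CCL2 moved with age in opposite directions in the purebreds, without passing the test. The difference was 0.53 (adjusted p = 0.127) in LW, -0.76 (0.0689) in MS, -0.63 (0.0412) in LWMS and -0.18 (0.723) in MSLW. The interaction of breed with age was -1.29 (standard error 0.35, limma adjusted p = 0.216), and the other probes gave -1.31 (0.106) and -1.28 (0.147). No chemokine probe was called for this interaction by limma (0 of 23, against 0.0173% of all probes). An unadjusted p under 0.05 was found for 6 of 23 chemokine probes and for 2695 of all 40515 probes.

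Macrophage and vessel markers were set beside CCL2 at day 110. Of 9 macrophage genes, CD163 (1.04) and MSR1 (1.01), both scavenger receptors, were higher in MS than in LW and none was lower, opposite in sign to CCL2. Of 5 endothelial genes KDR, a VEGF receptor, was lower in MS (-1.06). CCR2, the CCL2 receptor, differed by -0.53 (adjusted p = 0.297). The summed macrophage signal ran from 12.6 to 25.7 in LW and from 8.82 to 29.7 in MS, and the endothelial one from 9.05 to 17.1 and from 6.81 to 18.2. Their part in the CCL2 difference was not tested.

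Each parent's contrast was averaged over the breed of the other parent. The standing CCL2 probe had day-110 means of 2.14 in LW, 1.06 in MSLW, 1.03 in LWMS and 0.93 in MS. Purebred LW thus stood apart, while the reciprocal crosses lay close to MS. Both parental differences in CCL2 at that age rest largely on LW, so they do not tell sow from sire. Whether the difference with one parent's breed depended on the other's was not tested. At day 110 fetuses of MS sows had lower CCL2 than those of LW sows by all 3 probes (3 of 23, against 9.97% of all probes), by -0.61 (standard error 0.18, limma adjusted p = 0.0166) for the standing probe and -0.62 without fetus 632. Fetuses of MS sires were lower than those of LW sires by the identical-sequence probes, by -0.81 and -0.84 (2 of 23, against 2.15%), and the standing probe gave -0.59 (adjusted p = 0.0576). Averaged over both ages, the sire's breed was called for all 3 CCL2 probes (3 of 23, against 6.97%), by -0.38 (adjusted p = 0.0447) for the standing probe and -0.57 and -0.61 for the others. The standing probe lost that call with slide as a block (-0.33, adjusted p = 0.104) and with no filter (adjusted p = 0.0705). The sow's breed was called for the identical-sequence pair, by -0.39 and -0.37 (2 of 23, against 15.9%). No other chemokine probe was called for either parent at day 110 or over both ages with all 63 fetuses. Of 9 macrophage genes 5, CD163, MSR1 and the complement genes C1QA, C1QB and C1QC, were 0.37 to 0.48 higher with an MS sow over both ages, opposite in sign to CCL2.

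Without fetus 632, 5 probes were called for the sow's breed, against 21.2% of all. These were the CCL2 pair, both CCL25 probes (0.27 and 0.32 higher with an MS sow) and the standing CXCL12 probe (-0.34). No chemokine probe was called by limma for the interaction of age with the sow's breed (0 of 23, against 0.388% of all) or with the sire's breed (0 of 23, against 0%). At an unadjusted p under 0.05 there were 6 and 2 chemokine probes, against 4419 and 708 of all 40515 probes.

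At day 90 the breeds differed at 1 chemokine probe, against 3.59% of all probes. CXCL2 probe O8155 was 1.42 higher in MS than in LW (standard error 0.37, limma adjusted p = 0.00877), with ranges of -5.32 to -3.92 and -6.90 to -5.21. Its signal was well above background in 4 of 6 MS and 2 of 9 LW fetuses. The other CXCL2 probes differed by 0.01 and -0.49, neither called, so the probes of CXCL2 disagreed here. By the sire's breed at day 90, O8155 was 0.94 higher with an MS sire (adjusted p = 0.0278). The neutrophil genes S100A8, S100A9 and S100A12 differed by 1.96 to 2.28 between MS and LW at day 90, with adjusted p-values of 0.0763 to 0.191, and their part was not tested.

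Across all 8 groups the F test called 12 of 23 chemokine probes, against 28.8% of all probes. These were all probes of CCL2, CCL28, CXCL2 and CXCL12. Without fetus 632 the CCL25 probes joined them, making 14, against 31.8% of all.

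Of 33 other chemokine ligand names, 18 were on the array and 14 were tested. Over genotypes 5 were lower and 1 higher at day 110, where 13.7% of all probes were called. CXCL13, the B cell attractant of follicles, was lower by -2.57 (standard error 0.33, limma adjusted p = 6.16e-09), and the fall was called in LW, MS and LWMS. CCL4 was called lower in each of the 4 genotypes (-0.90 to -1.30). Over genotypes, CCL8 (-1.57) and CCL4 (-1.08), which attract monocytes and T cells, and CXCL9 (-1.19) and CXCL10 (-0.51), both induced by interferon, were lower. IL8, a neutrophil attractant as CXCL2 is, was higher by 0.59. CXCL9 was also higher in MS than in LW at day 90, by 1.98. The list's median age difference was -0.08, beside -0.02 over all probes. Of ligands not called over genotypes, AMCF-II was higher at day 110 in LW (1.80). Over both ages CCL16 (1.53) and CCL4 (0.37) were higher with an MS sow (2 of 14, against 15.9% of all probes). CXCL9 (1.06) was higher with an MS sire (1 of 14, against 6.97%).

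Of 29 receptor names, 16 were tested, with 3 higher and 1 lower at day 110, where 13.7% of all probes were called. Their median difference was 0.11. CXCR2 (1.02), DARC (1.39), a decoy receptor of vessels and red cells, and CXCR6 (0.50), the receptor of CXCL16, were higher, and CCR1 was lower (-1.08). CCR6 and CXCR5, the receptors of CCL20 and CXCL13, and CCR3, CCR4 and CCR8 were not among the tested. At day 90 CXCR2 (1.24) and XCR1 (0.91) were higher in MS than in LW (2 of 16, against 3.59% of all probes). Over both ages CXCR2 was higher with an MS sow (0.40) and with an MS sire (0.51). It was the only receptor called there (1 of 16 each, against 15.9% and 6.97% of all probes). CXCR7 rose in MSLW alone among single genotypes (1.22), which was not compared with the others by a test.

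Of 18 inducers and NF-kappaB genes, 14 were tested and 2 were called by age, a share near the 13.7% of all probes, with a median difference of 0.17. IL6 was lower at day 110 (-1.51) and LTBR, the receptor of lymphotoxin, higher (0.50). IL1B was higher at day 110 in LW (1.77), MYD88 in LWMS (0.52) and MSLW (0.57), and IRF1 was higher in MS than in LW at day 90 (0.80). With an MS sow IRF1 (0.30), MYD88 (0.23) and LTBR (0.21) were higher over both ages (3 of 14, against 15.9% of all probes). At day 110 no tested gene of the 3 lists was called between MS and LW.

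The named genes whose signal followed each chemokine most closely from fetus to fetus were found after the mean of each group was removed (Pearson r over 63 fetuses, as a description). For CCL19 they were POU2AF1 (r = 0.86), CD79A (0.82) and VPREB3 (0.80), genes known from B cells. For CCL5 they were CST7 (0.71), KLRK1 (0.69) and GZMH (0.64), genes known from cytotoxic lymphocytes. For CXCL12 they were CNRIP1 (0.85), OLFM1 (0.84) and CLDN5 (0.83), and for CCL2 they were LMO2 (0.79), CLDN5 (0.77) and ASF1B (0.76). CLDN5, a tight junction protein of vessels, stood in both lists.

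For CCL21 the closest were GPSM3 (0.79), PLVAP (0.75), a vessel protein, and NR2F1 (0.74). CCL20 had weaker ones, BCL2A1 (0.57), CYBA (0.57) and RNF187 (0.56). CCL28 was closest to TSTD1 (0.71), EGFL8 (0.70) and SST (0.69), and CXCL2 to SPARC (0.65), ACVR1 (0.62) and SOAT1 (0.58). CXCL16 followed RAB40B (0.86), MYOG (0.85) and CD5 (0.85), over 62 fetuses.

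For CCL25 the closest genes were set by fetus 632. With it they were S100G (0.93), GHRL (0.92) and CLDN15 (0.88), all far below the other fetuses on that array. Without it these gave 0.66, 0.64 and 0.22, and the closest were SOD1 (0.79), KRT8 (0.77), an epithelial keratin, and SPR (0.75).

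With group differences left in, the closest genes of most members changed. CCL28 was then closest to EHF, CD24 and PIGR (each 0.83), and CXCL2 to EHF (0.72), PIGR (0.70) and SPDEF (0.70). EHF and SPDEF are epithelial transcription factors, and PIGR carries IgA across the epithelium. CXCL12 was closest to CSRP2 (0.89), TEAD2 (0.86) and ACTA2 (0.86), the smooth muscle actin. CCL2 was closest to CKS2 (0.79) and CDK1 (0.78), both of the cell cycle, and AKR1B1 (0.77), and CCL19 to CD79A (0.80), CD79B (0.75) and its receptor CCR7 (0.74).

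For CCL5 and, with fetus 632, for CCL25 the same genes came first with the group means left in. Without that fetus, CCL25 was then closest to STAP2 (0.85), C15ORF48 (0.84) and HTATIP2 (0.83). For CCL20 they were CYBA (0.55), BCL2A1 (0.53) and NTAN1 (0.52), for CCL21 GPSM3 (0.76), MFNG (0.72) and NR2F1 (0.72), and for CXCL16 MYOG (0.80), RAB40B (0.77) and CYBRD1 (0.76).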

How the data were processed

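The authors deposited 1 scanner file per fetus, with the processed signal intensity of each spot (Agilent Feature Extraction 10.10.1.1, per the labels), and a matrix of normalized log2 values, whose exact method is not given in the sources used here. Arrays lay on 8 slides of 7 to 8 arrays.

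From the intensities, log2 values were taken, each array's 75th percentile over non-control spots was subtracted, outlier spots were left out and spots of a probe were averaged. One mean per group was fitted with limma 3.58.1 in R 4.3.3 across 40515 probes, with Benjamini-Hochberg adjustment over all of them. The F test was called at an adjusted p below 0.01, age and MS against LW at 0.01 with a log2 difference of 0.5, breed by age at 0.01 and the parents' breeds at 0.05. The fit was tested on simulated data.

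The 10 genes and the lists of other genes were chosen with earlier results of these data known. Named genes were the members by every probe, the genes of the 3 pathway lists called in a comparison, and the 3 genes closest to each member by correlation. The genes shown for fetus 632 were chosen after its values were seen. Alternatives were the authors' matrix, normexp correction, quantile normalization, median centring, other filters, slides as a block, array weights, purebreds alone, no minimum fold and leaving out fetuses.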

Additional observations from a re-analysis of the deposited data

Results flagged for a closer look

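Of 80 combinations of a chemokine and a group, 11 had a highest or lowest fetus whose gap to its nearest neighbour was large for the range of its group, where chance gives about 1 in 20. The clearest was CCL25 in MS at day 110, where fetus 632 lay at -0.18 and the next fetus at 6.15. In MSLW at day 90, fetus 450 was lowest for CCL2 (-0.51, next 1.17) and for CXCL12 (2.53, next 3.94), and fetus 899 was lowest for CCL20 (-4.70, next -1.66). In LWMS at day 110, fetus 411 was lowest for CCL2 (0.00, next 0.87) and for CXCL2 (-5.68, next -3.96), and fetus 611 was highest for CCL21 (3.87, next 2.82).

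For CCL28, fetus 900 was highest in MSLW at day 90 (-4.65, next -6.63) without being well above background, fetus 954 was highest in LWMS at day 90 (-2.71, next -4.95), and fetus 688 was lowest in MSLW at day 110 (-5.82, next -4.61). CCL19 was highest in LW fetus 500 at day 90 (2.96, next 0.51).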

How the results depend on the processing

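Of 1548 values of single genes under the alternatives, 1500 kept their call or lack of one, 18 lost a call, 27 gained one and 3 reversed. Among the 1500, 68 uncalled values changed sign. The reversed value was the CCL25 age difference in MS, -0.08, which was 0.92 with array weights, 0.85 without fetus 632 and 0.85 without fetuses 484, 469 and 632. CCL19 lost its age call under the authors' matrix (-0.84), normexp (-0.77), quantile normalization (-0.95), median centring (-0.90), no filter (-0.94), slide as a block (-0.90) and array weights (-0.61).

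Of 155 counts of called probes, 129 stayed within 1.5 times and 26 did not. The count for age in MS, 2, became 0 with normexp, 0 when every array of a group had to be well above background, 7 with array weights, and 5 without fetus 632, or 5 without fetuses 484, 469 and 632. For age in MSLW, 5, it was 2 with the authors' matrix and 3 with normexp, median centring, no filter or the stricter filter. For MS against LW at day 90, 1, it was 0 with the authors' matrix, normexp, quantile normalization, median centring, no filter or purebreds alone, and 3 with array weights. Array weights gave 7 for age in LWMS (4), 7 at day 110 between MS and LW (3), 7 for the sow's breed (2) and 6 for the sire's breed (3). The sow's breed count was 0 with median centring, 5 without fetus 632 and 6 without 484, 469 and 632. Sow by age, 0, gave 2 with the authors' matrix and 1 with normexp. The causes were not tested. Median centring moved the median of all probes for MS against LW at day 110 from 0.02 to 0.15. The choices without fetus 632 and within slides were made after seeing the data. No paired analysis was possible because each fetus number occurs once. Few CCL28 signals were well above background at day 90, which limits its fold changes.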

Other observations

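A dim CCL5 probe and a dim CCL19 probe were brightest on the same 3 arrays. CCL5 probe A_72_P372628 was at -2.01 or lower, or its spot left out as an outlier, except in MS fetus 532 (0.19), LW fetus 484 (-0.43) and LW fetus 469 (-0.71). CCL19 probe O555 was highest in LW fetus 484 (-0.28), MS fetus 532 (-0.98) and LW fetus 469 (-1.44), with the next fetus at -3.08. After fetus 632, these 3 arrays had the lowest correlation with the median of their own group, at 0.931, 0.948 and 0.951.

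Between members, the closest pair across fetuses within groups was CCL2 with CXCL12 (Pearson r = 0.68, over 63 fetuses on the same arrays), followed by CCL28 with CXCL2 (0.45) and CCL19 with CCL20 (0.43).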
